A study of Mus musculus with 8 samples.

Results

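The genes described here are 36 genes of mitosis and the mitotic spindle, measured in UVB-exposed mouse skin treated with enalapril or with its vehicle. They were chosen by name, from cyclin and kinase genes to genes of cytokinesis, with no measured value in the rule but with earlier results of these data known. Older names in the array files were matched (Cdc2a is Cdk1, Cdca1 is Nuf2, Kntc2 is Ndc80 and Spbc25 is Spc25). All 36 were on the array, and the probe used for each was well above background on all 8 arrays, so that all 36 stand among the 19097 genes and unnamed probes tested. Each gene is represented by its brightest probe.

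The enalapril group was 4 male SKH-1 mice, 19 weeks old, with 1% w/v enalapril maleate in 30 vol % ethanol put on the back skin 5 times a week for 2 weeks. The vehicle group was 4 male SKH-1 mice of the same age that received 30 vol % ethanol alone on the same schedule. Mice of both groups had been exposed to UVB on the back for 10 weeks, and the applications began 1 week later, so every comparison is between irradiated skins and no unirradiated skin enters it. SKH-1 is a hairless strain, enalapril inhibits angiotensin-converting enzyme, and total RNA of whole dorsal skin was hybridised to 1-colour Agilent arrays, 1 array per mouse. The series text also names 6 mice per group and a longer treatment, which are not analysed here.

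Values are log2 of the processed spot intensity minus the array's 75th percentile, so that 0 is the intensity at that percentile, and values are compared between arrays for the same probe only. The 75th percentile lay between 821.5 and 1540 intensity units, and 67.1% to 72.7% of the spots on an array were well above background, with 0 saturated. The 4 enalapril arrays were slide 2 and scan 2, and the 4 vehicle arrays were slide 1 and scan 1, which means that for all differences below the slide and the treatment cannot be told apart. Median local background was 48 to 52 units on the enalapril arrays and 57.5 to 66 on the vehicle arrays. Among the skin's defining markers, all 10 genes of basal keratinocytes, all 9 of suprabasal keratinocytes and all 7 of fibroblasts were well above background on at least 4 arrays.

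Mitosis is run by cyclin-dependent kinase 1, which cyclins A and B activate and which drives chromosome condensation and spindle assembly. The spindle checkpoint holds the cell until every kinetochore is attached, and then Cdc20 joins the anaphase-promoting complex, a ubiquitin ligase that marks securin and cyclin B for destruction. Most of these genes are transcribed late in the cell cycle, and in skin their RNA is found mainly where cells divide, in the basal epidermis and the hair matrix.

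Many late cell cycle promoters carry the CHR hexamer TTTGAA, which the DREAM and MuvB complexes bind, together with CCAAT boxes, which NF-Y binds. RefSeq promoters of the GRCm38.p6 assembly, 250 bases before to 50 after the start site, were matched for 30 of the 36 genes, with 31 promoters because Prc1 has a pair. The promoters of Tpx2, Kif20a, Foxm1, Cdc25c, Ccna2 and Aurkb were not used here. TTTGAA on either strand stood in 74.2% of the 31 promoters, against 17.9% of all 32851 promoters of the same length. CCAAT on either strand stood in 74.2%, against 37.4% of all promoters, and both motifs in 64.5%, against 6.95%.

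The 120 bases before the start site are shown for the 4 genes that passed the test below, and for Cdk1, the central kinase, which did not. Capitals mark TTTGAA or its reverse complement TTCAAA, and CCAAT or its reverse complement ATTGG. All run 5′ to 3′ on the gene's strand. Cdc20 lies on the minus strand at chr4:118437344-118437463, Pttg1 on the minus strand at chr11:43425982-43426101, and Kif11 on the plus strand at chr19:37376262-37376381. Top2a lies on the minus strand at chr11:99024190-99024309 and Cdk1 on the minus strand at chr10:69352913-69353032.
Cdc20: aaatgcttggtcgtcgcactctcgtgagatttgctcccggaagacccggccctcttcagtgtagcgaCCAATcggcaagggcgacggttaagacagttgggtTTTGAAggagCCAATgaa
Pttg1: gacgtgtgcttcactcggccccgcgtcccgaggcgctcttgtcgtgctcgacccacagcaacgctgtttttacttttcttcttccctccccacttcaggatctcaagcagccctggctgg
Kif11: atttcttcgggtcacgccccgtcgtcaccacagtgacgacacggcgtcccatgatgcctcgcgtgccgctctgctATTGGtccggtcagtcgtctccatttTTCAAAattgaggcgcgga
Top2a: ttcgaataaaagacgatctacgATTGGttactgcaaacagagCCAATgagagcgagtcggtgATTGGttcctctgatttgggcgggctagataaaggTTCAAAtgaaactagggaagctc
Cdk1: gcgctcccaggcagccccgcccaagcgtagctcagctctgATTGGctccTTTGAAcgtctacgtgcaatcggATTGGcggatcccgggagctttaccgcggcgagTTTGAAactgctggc
The hexamer begins 18 bases before the start site in Cdc20, 19 in Kif11 and 23 in Top2a, and Cdk1 holds it 15 and 71 bases before. Neither motif is in the Pttg1 window.

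The comparison of enalapril with vehicle asks how the inhibitor changed the RNA of UVB-exposed skin, here for genes of dividing cells. Of the 36 genes, 2 rose and 2 fell with enalapril (11.1%), against 14.2% of all genes tested that changed, 4.33% higher and 9.85% lower (limma, adjusted p under 0.05 over all 19097). The DNA-untangling enzyme gene Top2a and the spindle motor gene Kif11 rose, while Cdc20 and the securin gene Pttg1 fell. Securin is a protein that the complex joined by Cdc20 marks for destruction. The other 32 did not pass. In RNA from whole skin, a change in the number of dividing cells and a change in RNA per cell cannot be told apart.

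The log2 changes of the 36 genes ran from −0.77 to 0.58, with a median of −0.16 and a middle range of −0.30 to 0.01. Over all genes tested the median was −0.08 and the middle range −0.30 to 0.15. Below 0 were 25 of the 36 (69.4%), against 59.8% of all genes. The median size of the change without regard to sign was 0.20 for the 36 genes and 0.24 for all genes, and the standard error had a median of 0.14 in each. Only Cdc20 moved by more than 1.5-fold, 1 of 36 where 12.7% of all genes did.

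The groups did not overlap for 5 of the 36 genes (13.9%), against 22.0% of all genes tested, 6.60% higher and 15.4% lower. All 4 enalapril arrays lay above all 4 vehicle arrays for Top2a and Kif11, and below them for Cdc20, Aurka and Birc5. At an unadjusted p under 0.05 stood 9 of the 36, 2 higher and 7 lower, where 32.1% of all genes did. The interval of the change at 95% confidence lay within 1.5-fold either way for 24 of the 32 genes that did not pass, and within 2-fold for every one of the 36 except Cdc20.

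**Figure D1:**
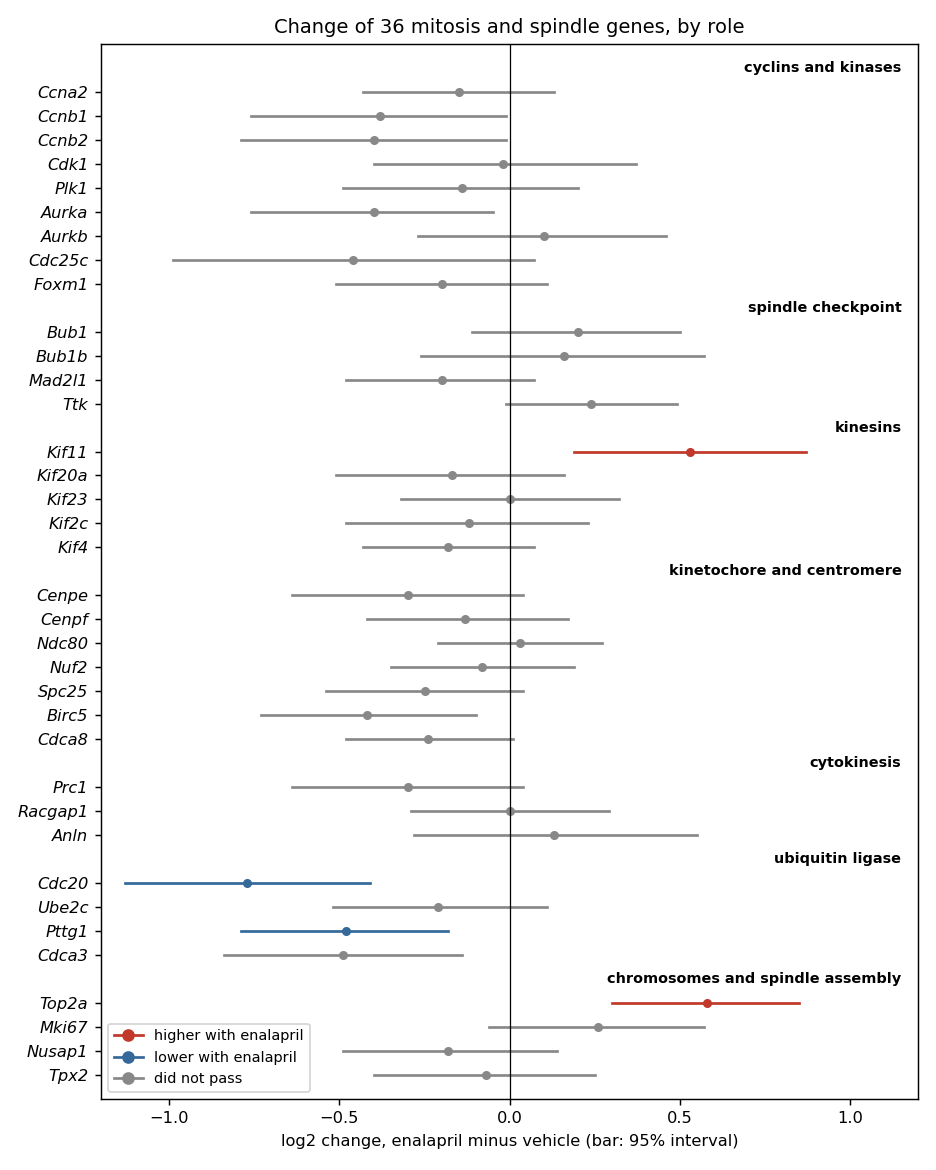
Log2 change, enalapril minus vehicle, of the 36 genes grouped by role, with its 95% interval from limma (n = 4 arrays per group). Top2a (0.58) and Kif11 (0.53) are the genes higher with enalapril and Cdc20 (−0.77) and Pttg1 (−0.48) those lower, and the grey bars are the 32 that did not pass.

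The 4 genes of the ubiquitin ligase step all had negative changes, from −0.77 to −0.21 with a median of −0.49, and 2 of them fell. Among all genes tested, 59.8% had negative changes and 9.85% fell. Cdc20 brings the substrates to the anaphase-promoting complex. Its log2 signal, from probe A_51_P361022, was 1.99, 2.50, 2.44 and 2.73 on enalapril arrays 1 to 4, against 3.05, 3.35, 3.18 and 3.14 on vehicle arrays 1 to 4. Every enalapril array lay below every vehicle array, and enalapril 1 was the lowest of all 8. Cdc20 fell by 0.77 ± 0.16 log2 (SE, n = 4 per group), or 1.70-fold, with an interval of −1.13 to −0.41 (limma adjusted p = 0.0212). Cdc20 kept its call in 4 of 8 fits with an array left out, and lost it without vehicle 2 (0.0587), vehicle 4 (0.0504), enalapril 2 (0.0515) or enalapril 3 (0.0543).

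Pttg1 encodes securin, the inhibitor of separase that the complex destroys to start anaphase. Its log2 signal, from probe A_51_P371190, was 1.31, 1.49, 1.45 and 1.74 on the enalapril arrays, against 1.97, 2.22, 1.74 and 2.00 on the vehicle arrays. The groups met at enalapril 4 and vehicle 3, which were equal to the second decimal. Pttg1 fell by 0.48 ± 0.13 log2, or 1.40-fold (limma adjusted p = 0.0461), and its call held only without vehicle 3 (0.0401) or enalapril 4 (0.0175), the other 6 fits giving 0.0988 to 0.113.

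Cdca3 encodes a trigger of entry into mitosis that promotes the destruction of the Wee1 kinase. Its log2 signal was 0.88, 1.27, 1.01 and 1.34 with enalapril, against 1.58, 1.77, 1.29 and 1.82 with vehicle. Of the vehicle arrays, vehicle 3 alone reached down among the enalapril values. The change was −0.49 ± 0.16 with an interval of −0.84 to −0.14 and did not pass (limma adjusted p = 0.0674). Its other probe gave −0.57 and passed when every probe was tested on its own (adjusted p = 0.0482 over all probes, of which 10.4% passed). Ube2c, the ubiquitin-conjugating enzyme that serves the complex, was at −0.21 ± 0.14 with an interval of −0.52 to 0.11 (adjusted p = 0.332), and its groups overlapped.

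Among the 4 genes of chromosome structure and spindle assembly, 1 rose and 3 did not pass, with a median of 0.09, where 4.33% of all genes tested rose. Top2a encodes topoisomerase II alpha, which separates the intertwined sister DNA molecules. Its log2 signal, from probe A_51_P252157, was −0.15, −0.18, −0.13 and −0.53 on the enalapril arrays, against −0.72, −0.84, −0.73 and −1.0 on the vehicle arrays. Every enalapril array lay above every vehicle array, and enalapril 4 was nearest to them. Top2a rose by 0.58 ± 0.12 log2, or 1.49-fold, with an interval of 0.30 to 0.85 (limma adjusted p = 0.0221). Its call held without vehicle 3 (0.0366) or enalapril 4 (0.00542), and barely without vehicle 1, where the adjusted p rounds to the threshold of 0.05. The fits without vehicle 2 or 4 or enalapril 1, 2 or 3 gave 0.0564 to 0.0631. A further Top2a probe above background on all arrays gave 0.32 (adjusted p = 0.667 over all probes), and by the mean of the gene's probes the change was 0.31 and did not pass (0.447).

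Mki67 encodes Ki-67, the protein that coats mitotic chromosomes and is stained as a sign of cycling cells. Its log2 signal was 2.32, 2.50, 2.40 and 2.80 with enalapril, against 2.20, 2.51, 2.09 and 2.20 with vehicle. Only vehicle 2 reached the enalapril values. The change of 0.26 ± 0.14, with an interval of −0.06 to 0.57, did not pass (limma adjusted p = 0.233), and the other probe gave 0.24. Nusap1, a microtubule-binding protein of the spindle, was at −0.18 (adjusted p = 0.420), and Tpx2, which activates Aurora A on spindle microtubules, at −0.07 (adjusted p = 0.755).

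**Figure D2:**
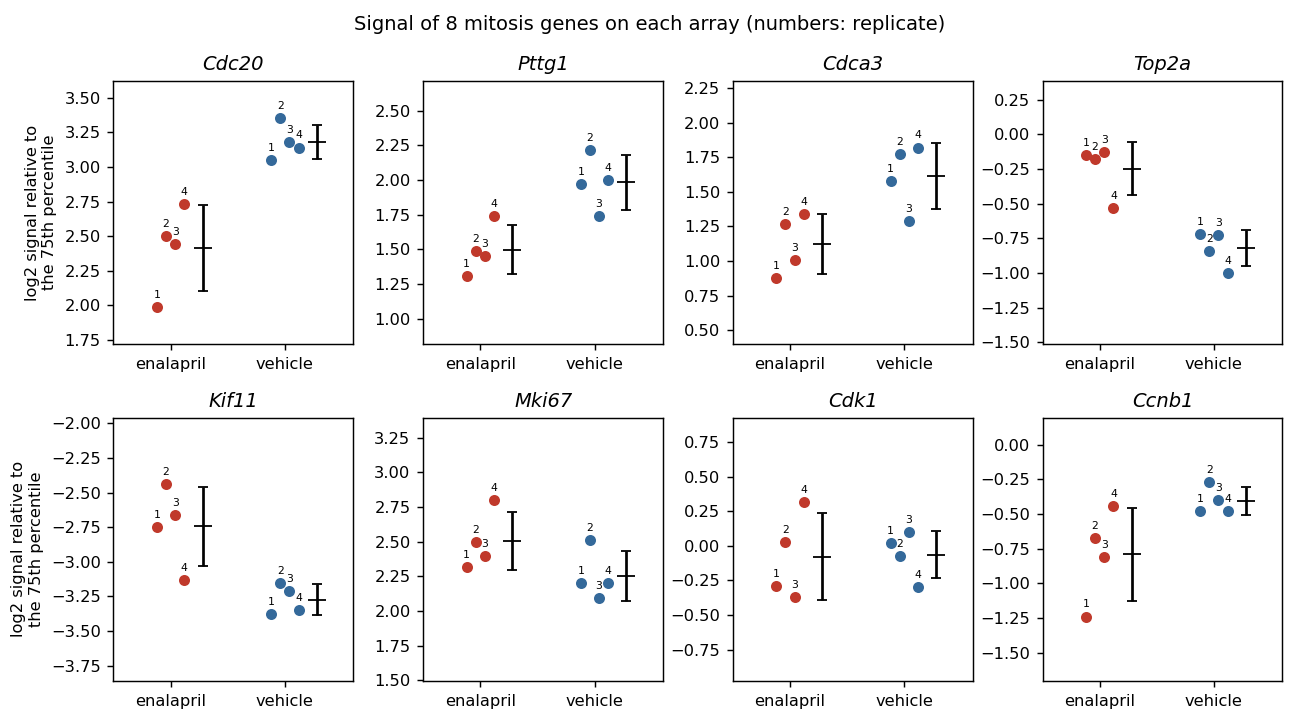
Log2 signal relative to the array's 75th percentile for 8 genes, with a point for each array, its replicate number above it, and the mean ± SD of each group (n = 4) beside the points; every panel spans the same range. The enalapril points of Cdc20 lie between 1.99 and 2.73, all below the vehicle points, those of Top2a between −0.53 and −0.13, all above them, and those of Cdk1 overlap with the vehicle points.

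Of the 5 kinesin genes, 1 rose and 4 did not pass, where 4.33% of all genes tested rose. Kif11 encodes the motor that pushes the spindle poles apart. Its log2 signal, from probe A_51_P481398, was −2.75, −2.44, −2.66 and −3.13 on the enalapril arrays, against −3.38, −3.15, −3.21 and −3.35 on the vehicle arrays. Enalapril 4 lay just above vehicle 2, and the other enalapril arrays lay clear of the vehicle arrays. Kif11 rose by 0.53 ± 0.15 log2, or 1.44-fold (limma adjusted p = 0.0484). Its call held only without enalapril 4 (0.00786), the other 7 fits giving 0.0758 to 0.118. The further probes of Kif11 were dim, one well above background on 1 array and one on 3, and gave 0.86 and −0.87 without being tested. By the mean of the gene's probes the change of Kif11 was 0.17 and did not pass (0.671).

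The other kinesins had changes near or below 0. Kif4, a motor on chromosome arms, was at −0.18 (limma adjusted p = 0.294), Kif20a, which acts at the central spindle, at −0.17 (0.456), and Kif2c, which takes microtubules apart at centromeres, at −0.12 (0.620). Kif23, the motor of centralspindlin, was at 0.00 with an interval of −0.32 to 0.32 (0.995). Each group held a low array for it, enalapril 4 at −0.86 and vehicle 1 at −0.75.

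None of the 9 genes of cyclins, kinases and their regulators passed (3 at an unadjusted p under 0.05, limma). Negative changes were 8 of the 9, against 59.8% of all genes, with a median of −0.20. Ccna2, cyclin A2, had log2 signals of 0.73, 1.14, 0.97 and 1.17 with enalapril, against 1.04, 1.31, 1.09 and 1.19 with vehicle. Enalapril 1 and 3 lay below all vehicle arrays, and enalapril 2 and 4 lay among them. The change was −0.15 ± 0.12 (limma adjusted p = 0.421).

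The B cyclin genes had negative changes that did not pass. Ccnb1 was −1.24, −0.67, −0.81 and −0.44 with enalapril, against −0.48, −0.27, −0.40 and −0.48 with vehicle. Only enalapril 4 reached the vehicle values. Its change was −0.38 ± 0.16 (limma adjusted p = 0.147), and further probes of the gene gave −0.38 and −0.35. Ccnb2 was at −0.40 ± 0.17 (0.151). Cdk1, the kinase they activate, was −0.29, 0.03, −0.37 and 0.32 with enalapril, against 0.02, −0.07, 0.10 and −0.30 with vehicle. The groups lay over each other, with a change of −0.02 and an interval of −0.40 to 0.37 (0.956).

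Aurka encodes Aurora A, a kinase of the spindle poles. Its log2 signal was 0.55, 1.10, 1.05 and 1.26 with enalapril, against 1.33, 1.58, 1.35 and 1.32 with vehicle. The groups did not overlap, but enalapril 4 came close to vehicle 4. The change of −0.40 ± 0.16 did not pass (limma adjusted p = 0.116). Aurkb, the Aurora kinase of centromeres and the midzone, was at 0.10 with an interval of −0.27 to 0.46 (0.715), and Plk1, a kinase of spindle poles and kinetochores, at −0.14 (0.548). Cdc25c, the phosphatase that switches Cdk1 on, was at −0.46 ± 0.23, and its SE was the largest of the 36 (0.210). Foxm1, a transcription factor of late cell cycle genes, was at −0.20 (0.335).

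Of 4 spindle checkpoint genes 0 passed (0 at an unadjusted p under 0.05, limma), and 3 of the 4 changes were positive, where 59.8% of all genes were negative. Bub1, a kinase that loads the other checkpoint proteins on kinetochores, was −2.33, −2.07, −2.38 and −2.05 with enalapril, against −2.33, −2.15, −2.54 and −2.60 with vehicle. Enalapril 2 and 4 lay above all vehicle arrays, and enalapril 1 and 3 lay among them. The change was 0.20 ± 0.13 with an interval of −0.11 to 0.50 (limma adjusted p = 0.347). Ttk, the kinase that starts checkpoint signalling, was at 0.24 ± 0.11 (0.175). Bub1b and Mad2l1 encode parts of the complex that inhibits Cdc20. Bub1b was at 0.16 (0.586), and Mad2l1 was at −0.20 (0.277).

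Among 7 genes of the kinetochore and the centromere 0 passed (1 at an unadjusted p under 0.05, limma). Negative changes were 6 of the 7, against 59.8% of all genes, with a median of −0.24. Birc5 encodes survivin, which with borealin (Cdca8) belongs to the complex that carries Aurora B. Its log2 signal was 2.32, 2.71, 2.42 and 2.65 with enalapril, against 2.81, 3.08, 2.73 and 3.16 with vehicle. The groups did not overlap, and enalapril 2 lay just below vehicle 3. The change was −0.42 ± 0.14 with an interval of −0.73 to −0.10 and did not pass (limma adjusted p = 0.0776). Cdca8 was at −0.24 ± 0.11 (0.164), and a further probe of it gave 0.04.

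Cenpe, a kinesin that links kinetochores to microtubules, was 1.09, 1.58, 1.57 and 1.48 with enalapril, against 1.61, 2.00, 1.54 and 1.79 with vehicle. Enalapril 1 lay well below the rest, and enalapril 2 and 3 reached above vehicle 3. The change on this probe was −0.30 ± 0.15 (limma adjusted p = 0.197), while the further probes gave 0.57 (0.0598 over all probes) and 0.82 (0.310), so the probes of Cenpe disagree in sign. Ndc80, Nuf2 and Spc25, subunits of the complex that grips microtubule ends, were at 0.03 (0.881), −0.08 (0.676) and −0.25 (0.212). Cenpf, a large kinetochore protein, was at −0.13 (0.529).

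Of 3 genes of cytokinesis 0 passed (0 at an unadjusted p under 0.05, limma). Prc1, which bundles the microtubules of the midzone, was 0.84, 1.25, 1.38 and 1.29 with enalapril, against 1.29, 1.68, 1.35 and 1.62 with vehicle. Enalapril 1 was again the lowest array, and enalapril 3 and 4 reached the lower vehicle arrays. The change was −0.30 ± 0.15 (limma adjusted p = 0.208). Racgap1, the partner of Kif23 in centralspindlin, was at 0.00 with an interval of −0.29 to 0.29 (1.0). Anln, the cleavage furrow scaffold anillin, was at 0.13 (0.652), and its other probe gave −0.16.

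Further probes were available for 18 of the 36 genes, 23 probes in all. Of the 17 bright enough to be tested, 12 had the sign of the probe used, among them those of Kif23 and Racgap1, whose probe used was at 0.00. The single further probe past the test was that of Cdca3. With every probe tested on its own, the probes used for Cdc20 (adjusted p = 0.0272 over all probes, limma) and Top2a (0.0289) passed, and those for Kif11 (0.0590) and Pttg1 (0.0570) did not.

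Within each group the arrays stood in a like order for many of the 36 genes. Enalapril 1 was the lowest enalapril array for 30 of the 36, where it was for 32.5% of all genes, and its median deviation from the group mean was −0.25. Enalapril 4 was the highest enalapril array for 25 of the 36 (46.8% of all genes), with a median deviation of 0.17. Vehicle 2 was the highest vehicle array for 20 of the 36 (24.2% of all genes), with a median deviation of 0.14. The SD was larger in the enalapril group than in the vehicle group for 29 of the 36 genes, against 58.9% of all genes, with a median SD of 0.22 in the enalapril group and 0.15 in the vehicle group. Without enalapril 1 the median change of the 36 genes was −0.06, against −0.08 over all genes, and 12 were positive. Cdc20 alone kept its call in that fit, where 4.88% of all genes passed. The fits without enalapril 2, enalapril 3, vehicle 2 or vehicle 4 gave 0 calls among the 36.

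**Figure D3:**
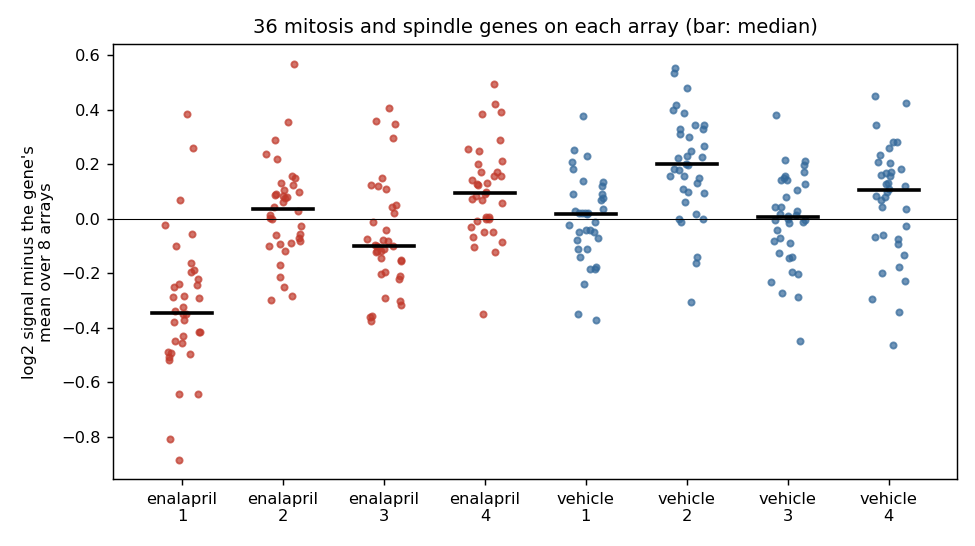
Log2 signal of each of the 36 genes on each array minus that gene's mean over the 8 arrays, with a bar at the median. The median is −0.34 on enalapril 1, where 3 of the 36 genes lie above their mean, and 0.20 on vehicle 2, where 32 do.

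Markers of the cell types that could carry these RNAs were set beside them, as sums of linear signal in units of the array's 75th percentile. Over all genes tested 4.33% were higher and 9.85% lower, the shares beside which the counts of called markers stand. The 36 genes summed to 47.2, 60.2, 55.4 and 65.1 on the enalapril arrays, against 64.6, 77.7, 64.1 and 69.1 on the vehicle arrays. The 10 basal keratinocyte markers summed to 586 to 707 with enalapril, against 515 to 740 with vehicle, and 1 of them passed, the integrin gene Itgb1, which rose by 0.42 log2 (limma adjusted p = 0.0240), with 0.47 and −0.46 on its other probes. The 12 hair matrix and follicle markers summed to 45.4 to 70.1 with enalapril, against 46.9 to 96.2 with vehicle, with 0 of the 10 tested past the test (1 at an unadjusted p under 0.05, limma), a median of −0.36 and Dsg4 not well above background on any array. Across arrays this hair list was at 46.1 and 45.4 on enalapril 1 and 3, the arrays on which the 36 genes summed lowest, and at 46.9 on vehicle 4.

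T cell markers summed to 3.23 to 5.10 with enalapril, against 4.63 to 5.23 with vehicle, with 0 of 7 past the test (1 at an unadjusted p under 0.05, limma). B and plasma cell markers summed to 6.26 to 21.4 with enalapril, against 6.56 to 20 with vehicle, with 1 of 6 lower. Skeletal muscle markers summed to 552 to 603 with enalapril, against 647 to 933 with vehicle, with 5 of 9 lower, and adipocyte markers to 195 to 301 with enalapril, against 298 to 386 with vehicle, with 5 of 8 lower. Of the sebaceous gland markers 1 of 6 was lower. None passed among 9 markers of suprabasal keratinocytes, 8 of macrophages and dendritic cells, 5 of mast cells, 7 of fibroblasts and 6 of endothelium, with 2 of the macrophage and 1 of the endothelial markers at an unadjusted p under 0.05. The part of these cell types in the changes of the mitosis genes was not tested.

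Gene length and probe brightness went with the direction of the change among the 36 genes. The span from start to end in the GRCm38.p6 annotation was known for all 36 and for 81.3% of the genes tested. The 18 genes with a span of 21815 bp (Prc1) or more had a median change of 0.00, with 10 positive, among them Kif23 and Racgap1 at 0.00. The 18 of 18572 bp (Cdc25c) or less had a median of −0.24, with 1 positive (Aurkb). Among all 15521 tested genes with a span, parted at the same point, the longer had a median change of −0.03 and the shorter −0.19. The rank correlation of span with log2 change was 0.556 over the 36 genes and 0.279 over the 15521, across genes that share the same 8 arrays and are not replicates. The 18 brighter probes had a median of −0.22, with 1 positive, and the 18 dimmer ones a median of 0.00, with 10 positive, Kif23 and Racgap1 again among them. The rank correlation of brightness with log2 change was −0.555 over the 36 genes and −0.113 over all genes, and that of span with brightness −0.381 over the 36. Whether length or brightness had a part in the changes was not tested.

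**Figure D4:**
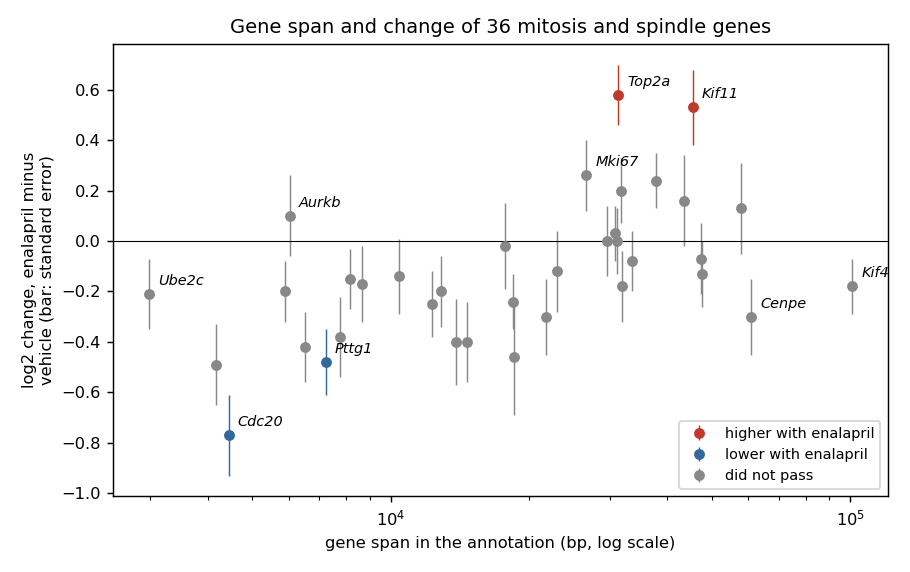
Log2 change, enalapril minus vehicle (bar: SE, n = 4 arrays per group), against gene span in base pairs on a log axis for the 36 genes. Top2a and Kif11, higher with enalapril, are among the 18 longer genes, and Cdc20 and Pttg1, lower with enalapril, among the 18 shorter ones.

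Genes with the hexamer had changes of both signs. The 22 genes with TTTGAA in the window had a median change of −0.12 and ran from −0.77 to 0.58, the full span of the 36 genes, while the 8 without it had a median of −0.25 and ran from −0.48 to 0.20. Cdc20, which fell, and Top2a and Kif11, which rose, have the hexamer within 23 bases of the start site, as the sequences above show, and Pttg1, which fell, has none.

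Counts in the related lists that follow stand beside the 14.2% of all genes tested that changed, 4.33% higher and 9.85% lower. Of 72 further mitosis genes tested, 1 rose and 2 fell, with a median of 0.01. Gtse1, a microtubule-binding protein of late interphase and mitosis, was −3.83, −3.51, −3.90 and −3.40 with enalapril, against −4.76, −4.29, −5.29 and −4.05 with vehicle. Its groups did not overlap and the vehicle arrays spread more widely. Gtse1 rose by 0.94 log2 (limma adjusted p = 0.0459) and kept its call in 1 of 8 fits with an array left out (up to 0.108). Kif24, a centriolar kinesin, was −2.24, −1.80, −1.96 and −1.67 with enalapril, against −0.51, −1.10, −1.13 and −0.88 with vehicle. The groups were well apart. Kif24 fell by 1.01 log2, or 2.01-fold (0.0139), and was called in all 8 fits with an array left out, but its other probe gave 0.43 (0.251 over all probes). Cks2, a partner of Cdk1, fell by 0.44 (0.0452), with 1 of 8 fits keeping the call (up to 0.106) and −0.21 on its other probe.

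Of 15 subunits and regulators of the anaphase-promoting complex, the partner of Cdc20, 2 fell and 13 did not pass, with a median of −0.12. The small subunit gene Anapc13 was 4.89, 4.83, 4.83 and 5.09 with enalapril, against 5.36, 5.44, 5.27 and 5.35 with vehicle. All enalapril arrays lay below all vehicle arrays. Anapc13 fell by 0.45 log2 (limma adjusted p = 0.0233) and kept its call in 2 of 8 fits (up to 0.0679). Anapc10, a subunit that helps to bind substrates, fell by 0.38 (0.0449) and kept its call in 1 of 8 (up to 0.109).

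Of 34 DNA replication genes of the preceding S phase, 2 rose, 2 fell and 30 did not pass, with a median of −0.04. Rrm2, a subunit of ribonucleotide reductase, rose by 0.44 log2 (limma adjusted p = 0.0256) and Cdc45, part of the replicative helicase, by 0.33 (0.0460). Tk1, thymidine kinase, fell by 0.46 (0.0357) and Rfc4, of the clamp loader, by 0.42 (0.0233). For these 4 genes the groups did not overlap, and each kept its call in 1 or 2 of 8 fits with an array left out, with adjusted p up to 0.0707 for Rrm2, 0.115 for Cdc45, 0.0905 for Tk1 and 0.0659 for Rfc4.

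Of 14 genes of G1 cyclins, their kinases and E2F and Myc factors, 0 passed (1 at an unadjusted p under 0.05), with a median of 0.01. Those with the smallest p were Cdk6 at 0.34 ± 0.13 (limma adjusted p = 0.116), E2f2 at 0.32 ± 0.15 (0.178) and Ccne2 at −0.50 ± 0.27 (0.229). Of 16 cell cycle inhibitors, 1 fell. Cdkn2a, which encodes the inhibitors p16 and p19Arf, was −2.88, −3.18, −2.90 and −2.09 with enalapril, against −1.72, −1.92, −2.03 and −1.77 with vehicle. The groups did not overlap, with enalapril 4 close to vehicle 3. Cdkn2a fell by 0.90 log2, or 1.87-fold (0.0304), and kept its call in 2 of 8 fits (up to 0.0782).

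Of 15 genes of the DREAM and MuvB complexes and NF-Y, which bind the promoter motifs shown above, 1 rose and 14 did not pass, with a median of 0.02. E2f4, an E2F factor of DREAM, was −3.21, −3.04, −2.97 and −2.84 with enalapril, against −3.79, −3.93, −3.63 and −3.34 with vehicle. All enalapril arrays lay above all vehicle arrays. E2f4 rose by 0.66 log2, or 1.58-fold (limma adjusted p = 0.0244), and kept its call in 4 of 8 fits with an array left out (up to 0.0668).

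The split of higher and lower calls among the 36 genes depended on the scaling. As reported 2 were higher and 2 lower. By quantile normalization, where 9.98% of all genes passed, 2 were higher and 1 lower, and median centring gave the same split (10.1% of all genes). With normexp background correction after all high local backgrounds were reset, 1 was higher and 2 lower (10.4% of all genes). By the uncentred series matrix values 0 were higher and 1, Cdc20, was lower (10.4% of all genes). Centring on the E1A control probes gave 0 calls (2.00% of all genes).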

How the data were processed

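Total RNA of dorsal skin from 8 mice, 4 per group by the labels' treatment, was labelled with Cy3. The deposited scanner files hold spot intensity on a linear scale from Agilent Feature Extraction 9.1.3.1 per the file headers (9.1 per the submitters' processing notes), already background-subtracted and detrended by the authors' software but left unscaled across arrays. Its flags, deposited as 0 or 1, are other values and served as filters. In the deposited series matrix are log2 values equal to the log2 of that intensity, with no centring, and served as an alternative.

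Spots with an outlier flag were removed and spots of a probe averaged. Of 41174 probes, 47 had no usable spot on some array. Probes were named through GRCm38.p6 RefSeq, 22951 by accession, 6659 by symbol and 3096 by synonym, while 2024 kept the file's name and 6444 stayed unnamed. The probe with the highest mean signal stood for a gene, and 19097 genes or unnamed probes well above background on at least 4 arrays were tested.

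Values were log2 intensity minus the array's 75th percentile. limma 3.58.1 in R 4.3.3 (lmFit and eBayes, group as the only term, two-sided) was used with Benjamini-Hochberg adjustment over all genes tested, and a gene passed at an adjusted p under 0.05. Errors of log2 changes are limma's standard errors. The labels call the samples biological replicates, and the number of arrays limits the precision. The pipeline was tested on simulated data. Motifs and gene spans were taken from the reference tables with Python 3.11.15.

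The genes, their role groups, the related lists, the marker lists and the tests were chosen with earlier results of these data known, so no test is made over a list. All 36 genes are named, with the value on every array for those that passed and for at least 1 gene of each role, and in each related list the genes that passed, or the 3 with the smallest p where none did. The alternatives were 3 forms of normexp background correction (offset 50), quantile normalization, median centring, centring on 10 E1A control probes, the series matrix values, 3 looser or stricter filters for dim probes, the mean of a gene's probes or every probe, robust estimation with an intensity trend, weights per array, a replicate block, fits without each array in turn, and an adjusted p under 0.10.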

Additional observations from a re-analysis of the deposited data

Results flagged for a closer look

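Among the 72 sets of 4 arrays (36 genes in each group), 5 held an array far from the other 3, with a gap to its nearest neighbour above Dixon's critical share of the range. Chance flags about 1 in 20 such sets.

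Top2a stood at −0.53 on enalapril 4, against −0.18 to −0.13 on the other enalapril arrays. Kif23 stood at −0.86 on enalapril 4, against −0.44 to −0.36 on the other enalapril arrays, and at −0.75 on vehicle 1, against −0.45 to −0.41 on the other vehicle arrays. Racgap1 stood at −1.91 on enalapril 1, against −1.55 to −1.52 on the other enalapril arrays. Aurka stood at 1.58 on vehicle 2, against 1.32 to 1.35 on the other vehicle arrays.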

How the results depend on the processing

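The 36 genes gave 4 calls as reported, 2 higher and 2 lower. Leaving out an array gave 0 to 8 calls, 0 to 2 higher and 0 to 6 lower, and a median change of −0.22 to −0.06. The 8 calls came without enalapril 4, where 26.1% of all genes passed, against 4.49% to 10.5% in the other 7 fits. There were 0 calls in either direction with normexp and with normexp after 3 high backgrounds on enalapril 3 were repaired, where 0 of all 19097 genes passed, and with E1A control centring, where 2.00% did. Normexp with all 9 high backgrounds on that array reset, chosen after seeing the data, gave 1 higher and 2 lower. Quantile normalization and median centring gave 1 lower each. The series matrix values gave 1 call, 0 higher and 1 lower, with a median of −0.53, where all genes had −0.45. A filter of 1 array (10.8% of all genes passing), or none (5.39%), gave 2 calls, 1 higher and 1 lower, and the mean of a gene's probes (10.2%) 2 calls, 0 of them higher. The intensity trend (15.8%) gave 1 higher and 4 lower, array weights (31.1%) 7 calls with 5 lower, and an adjusted p under 0.10 (23.8%) gave 4 lower. With the replicate block (3.19%) 1 gene was called, Top2a, 1 higher and 0 lower. Same-numbered arrays deviated from their group means with correlations of −0.159, 0.0479, 0.1461 and −0.0204. With so few numbers to compare, these correlations cannot show whether the replicate numbers pair samples. No called gene of the 36 changed sign in any of the 8 leave-one-out fits or the 14 other alternatives. Some that did not pass changed sign, such as Cdc25c (0.21 with normexp) and Cenpe (0.36 by the mean of a gene's probes). As reported 11 of the 36 genes were positive, against 2 in the series matrix values and 17 with normexp. Of the related genes, Cdc45 was at −0.03 in the series matrix values. The causes of these shifts were not tested. The median of the 36 genes minus that of all genes ran from −0.19 to 0.02. A block for slide or scan was not run, since each slide held 1 group.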
